A study of Mus musculus with 2 samples.

Results

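Interferon-stimulated genes are switched on when a cell receives an interferon signal, and 41 of them were followed here in IL-10-producing CD4+ T cells of the mouse. The 41 were taken by name from known interferon targets that are present among the 28009 genes counted. No cut on their measured values was used, but earlier results of these data were known when they were chosen. T cells with an active *Il10* reporter had been sorted from the spleen and from the small intestine (SI) of double reporter mice (IL-10eGFP Foxp3mRFP), in which eGFP marks *Il10* and mRFP marks *Foxp3* expression, and each tissue gave 1 single-cell library on the 10x Genomics Chromium platform. The mice were 8 to 16 weeks old and had received 15 µg of anti-CD3 antibody, which activates T cells through their receptor, on day 0 and again on day 2, with cells taken 4 h after the later dose. Both libraries therefore hold anti-CD3-treated cells, Foxp3+ cells were left in the sort, and the number of mice pooled is not given in the sources used here. With 1 library per tissue no test between tissues was possible, tissue and library cannot be told apart, and the 95% intervals given below cover counting error only. Since UMIs of several members sat together in few cells, these intervals are narrower than the variation between cells.

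As background, type I interferons bind the receptor made of Ifnar1 and Ifnar2, whose kinases Jak1 and Tyk2 lead to a complex with Stat2 and Irf9 that binds the interferon-stimulated response element (ISRE) in promoters. Interferon-γ, the product of *Ifng*, is made by T cells themselves and acts through Ifngr1, Ifngr2, Jak1 and Jak2 on promoters with the gamma-activated site (GAS). The induced genes sense viral RNA, amplify the signal, tag proteins with the ubiquitin-like Isg15, block viral replication, or, as GTPases of the Irg and Gbp families, attack the vacuoles of intracellular parasites.

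Many, but not all, of the promoters examined carry the element through which this response is known to be read. In windows from 250 bases before to 50 bases after the annotated start (RefSeq, GRCm38.p6), the ISRE core GAAANNGAAA was searched on both strands. It was present in 17 of the 30 members with a window (56.7%), against 3.44% of all 32851 windows and 3.99% of the 27025 genes with a window. The GAS letters TTCNNNGAA, which read the same on both strands, were present in 8 of 30 members (26.7%), against 8.3% of windows and 9.55% of genes. *Bst2*, *Igtp* and *Gbp7* held both. A match describes letters in this window and is not a measured binding site. The members were chosen as known interferon targets, so their higher share is a description and not an independent result. The stretches of 7 members that differ between the tissues or mark the cells described at the end are shown from 5′ to 3′ on the strand of the gene, upstream of the start, with the ISRE core in capitals (written as its reverse complement where it lies on the other strand).
Isg15: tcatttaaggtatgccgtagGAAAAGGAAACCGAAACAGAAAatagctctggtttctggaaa
Stat2: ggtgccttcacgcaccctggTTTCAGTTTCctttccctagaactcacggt
Ifit1: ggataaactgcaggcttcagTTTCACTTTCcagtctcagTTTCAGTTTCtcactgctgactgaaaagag
Ifit3: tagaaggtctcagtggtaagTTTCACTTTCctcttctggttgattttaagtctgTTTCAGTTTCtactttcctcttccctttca
Ifit3b: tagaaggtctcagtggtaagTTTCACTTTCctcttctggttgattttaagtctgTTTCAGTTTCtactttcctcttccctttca
Rsad2: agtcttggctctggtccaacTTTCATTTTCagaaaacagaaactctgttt
Igtp: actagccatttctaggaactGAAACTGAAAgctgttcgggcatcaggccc

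The *Isg15* stretch (chr4:156200855-156200916, minus strand) holds 3 overlapping cores, the last of them 56 bases from the start. *Ifit1* (chr19:34640765-34640833), *Ifit3* (chr19:34583353-34583436) and *Ifit3b* (chr19:34607749-34607832), all on the plus strand, hold 2 cores each. The *Ifit3* and *Ifit3b* stretches are identical and belong to a run of 169 identical bases in their windows, so this element does not distinguish the 2 genes. *Stat2* (chr10:128270256-128270305, plus strand), *Rsad2* (chr12:26456543-26456592, minus strand) and *Igtp* (chr11:58199502-58199551, plus strand) hold 1 core each. By role, the core was found in 2 of 2 sensors, 1 of 4 transcription factors, 1 of 2 members of the Isg15 system, 6 of 11 antiviral effectors, 5 of 6 GTPases, 2 of 4 Schlafen genes and 0 of 1 member of the Parp9 complex with a window.

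The spleen library held 1738 barcodes with 11103530 UMIs (unique molecular identifiers, each standing for 1 captured RNA molecule), and the SI library 1474 barcodes with 5693395 UMIs. After quality filters and removal of cells placed in G2/M, 1469 spleen cells (median 5408 UMIs) and 1278 SI cells (median 3696 UMIs) remained, and no barcode was shared between the libraries. Both libraries had the markers of the sort: *Cd3d* was detected in 99.5% of spleen and 98.3% of SI cells, *Cd4* in 67.0% and 73.1%, and *Il10* in 64.9% and 72.5%. A gene's level is given as its UMIs per 1000000 UMIs of the group (CPM), which counts transcript ends and is not scaled by transcript length. Among marker lists of other cells, B cell genes summed to 6.44 CPM in the spleen (with *Ms4a1* at 0) and 14.1 CPM in the SI, plasmacytoid dendritic cell genes to 2.18 and 8.34 CPM, and myeloid genes to 167 and 143 CPM, of which *Cst3* made up most. CD8 genes stood at 13.8 CPM in the spleen, with *Cd8a* at 0, and at 353 CPM in the SI, where 121 cells had UMIs of both *Cd8a* and *Cd8b1*. A list of 9 early-response genes, drawn up with tissue dissociation in mind, summed to 1264 CPM in the spleen and 3776 CPM in the SI. *Junb* gave most of it, at 847 and 2204 CPM. Also higher in the SI were *Fos* (102 and 444 CPM), *Fosb* (12.6 and 131 CPM), *Jun* (112 and 305 CPM), *Egr1* (49.9 and 110 CPM) and *Dusp1* (127 and 567 CPM). *Atf3* had 4 UMIs in each tissue. The heat shock genes of the list differed little, with *Hspa1a* at 10.8 and 11.5 CPM and *Hspa1b* at 1.42 and 1.79 CPM. The paper's methods describe EDTA, collagenase digestion and a Percoll gradient for intestinal cells. What raised the early-response genes was not tested, nor was their part in the differences between tissues.

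The 41 members took 0.956% of all UMIs in the spleen (0.949 to 0.962) and 0.715% in the SI (0.707 to 0.722), a ratio of 1.34 (1.32 to 1.35). In single cells the share had a median of 0.893% in the spleen, with 5th and 95th percentiles of 0.361% and 2.04% and a maximum of 6.52%. In the SI the median was 0.626%, with 0.281% and 1.48% as percentiles and a maximum of 3.22%. The distributions of the cells of the 2 tissues overlapped widely.

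The tissue difference in the sum came from 3 abundant members. *Ifi27l2a* (ENSMUSG00000079017, GRCm38 chromosome 12, 103442167 to 103443680), a small membrane protein of the interferon-inducible Ifi27 family, had 4936 CPM in the spleen (4890 to 4981) and 3094 CPM in the SI (3046 to 3143). *Ly6e*, a GPI-anchored surface protein, had 1194 and 860 CPM, and *Slfn2*, a Schlafen protein known to be needed for T cell quiescence, had 701 and 398 CPM. These 3 members held 71.5% of all member UMIs in the spleen and 60.9% in the SI, and their summed ratio of spleen to SI was 1.57 (1.55 to 1.59). The other 38 members summed to 0.273% of UMIs in the spleen and 0.280% in the SI, a ratio of 0.975 (0.955 to 0.996). That value was 1.03 (0.997 to 1.06) when every cell was thinned to the same 2089 UMIs and 1.13 (1.10 to 1.16) in cells of 3000 to 6000 UMIs, so the 38 together had no direction that held in all 3.

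**Figure D1:**
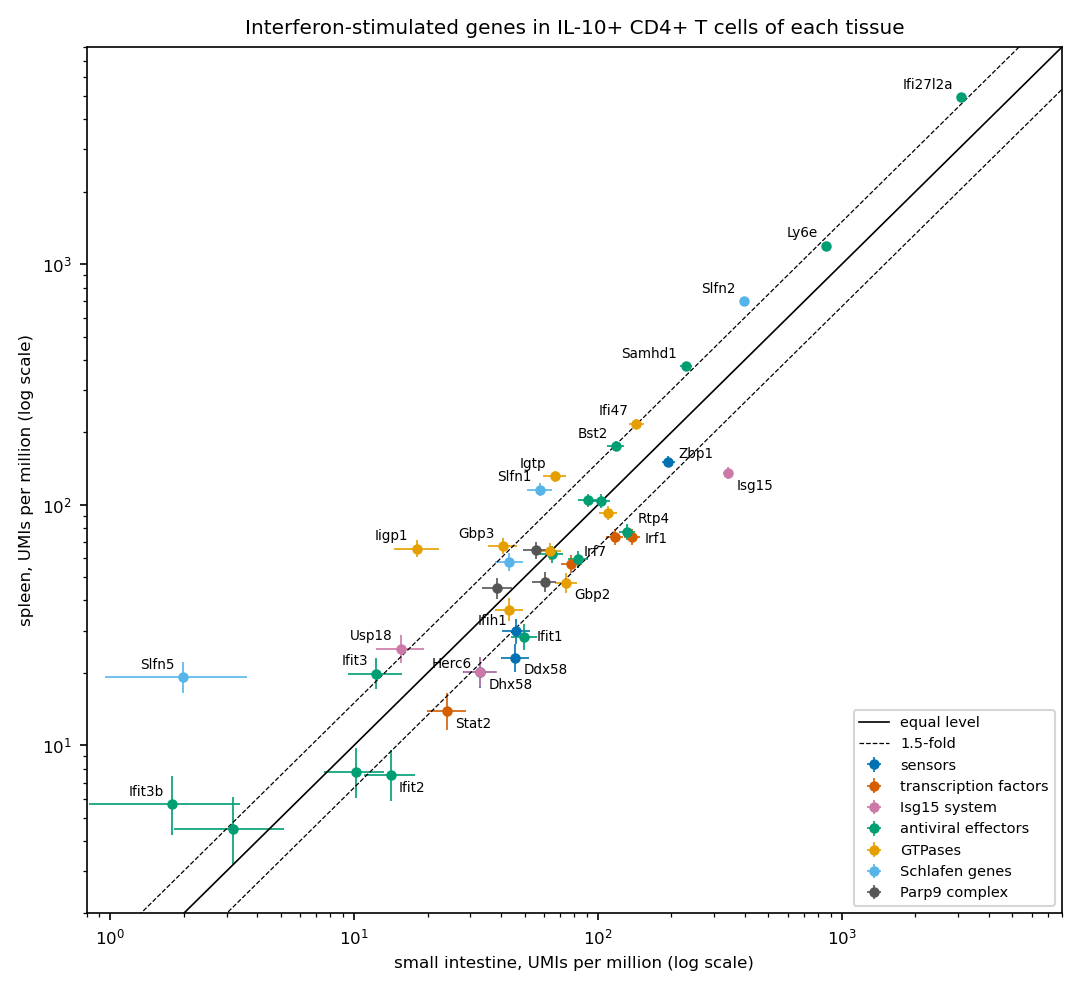
Level of each of the 41 members in the SI (horizontal axis) and the spleen (vertical axis), in CPM on log axes, with exact Poisson 95% intervals and colours for the role of the gene. Dashed lines mark a 1.5-fold difference. *Ifi27l2a*, *Ly6e* and *Slfn2* stand above the other members in both tissues, and *Slfn5* and *Isg15* lie far from the diagonal on opposite sides.

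Among the single members, all 4 sensors, all 4 transcription factors and *Isg15* had higher levels in the SI and all 4 Schlafen genes in the spleen, while the other roles held members on both sides. Of the 41 members, all of which passed the filter on low counts, 12 were at least 1.5-fold higher in the spleen and 12 at least 1.5-fold lower (29.3% each way). Over all 9034 genes that passed, 24.2% were higher and 21.3% lower by this measure, so that the shares among the members were near the background of this comparison. The median log2 ratio was 0.01 over the members and 0.02 over all genes tested. At equal depth the counts were 13 higher and 7 lower of 39 members (background 22% and 19.8%).

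Over all cells the sensors had higher levels in the SI. *Ddx58*, which encodes the RNA sensor RIG-I, had 23.1 CPM in the spleen and 45.9 CPM in the SI, a ratio of 0.504 (0.416 to 0.610). *Ifih1*, which encodes the long double-stranded RNA sensor MDA5, had 29.8 and 46.1 CPM (0.647, 0.541 to 0.774). Their regulator *Dhx58* had 20.1 and 32.8 CPM (0.613, 0.494 to 0.761). All 3 were past 1.5-fold, and the Z-nucleic acid sensor *Zbp1*, at 151 and 194 CPM (0.777, 0.715 to 0.844), pointed the same way within it. Together the 4 sensors had a ratio of 0.702 (0.657 to 0.750). Within the Ccl5 states described below, where no sensor both passed the filter and was past 1.5-fold, *Ddx58* had 0.707 (0.493 to 0.991) in Ccl5-high and 0.564 (0.342 to 0.991) in other cells, *Dhx58* 0.857 and 0.830, and *Ifih1* 0.805 and 1.05, with intervals that hold 1 for the last 2 genes.

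The transcription factors had the same direction over all cells. *Stat2*, the partner of Irf9 in the ISRE-binding complex, had 13.9 CPM in the spleen and 24.0 CPM in the SI (0.577, 0.446 to 0.746). *Irf7*, the main amplifier of type I interferon transcription, had 73.3 and 117 CPM (0.627, 0.560 to 0.701). *Irf1*, a target of the interferon-γ pathway, had 73.7 and 137 CPM (0.536, 0.481 to 0.597). *Irf9*, the DNA-binding subunit of that complex, was within 1.5-fold at 56.8 and 77.9 CPM. Within Ccl5-high and other cells the ratio was 0.572 and 0.803 for *Irf7*, 0.487 and 0.805 for *Irf1*, and 0.788 (0.490 to 1.22) and 1.43 (0.542 to 5.35) for *Stat2*.

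The Isg15 system was divided between its members. *Isg15* (ENSMUSG00000035692, chromosome 4, 156199424 to 156200818), the ubiquitin-like modifier, had 136 CPM in the spleen (128 to 143) and 342 CPM in the SI (326 to 358), a ratio of 0.397 (0.369 to 0.427). It was detected at equal depth in 17.6% of spleen cells and 41.9% of SI cells. *Herc6*, the ligase that attaches Isg15 to proteins in the mouse, had 20.2 and 33.0 CPM (0.612, 0.494 to 0.760). *Usp18*, the protease that removes Isg15 and also dampens type I interferon receptor signalling, lay on the other side with 25.2 and 15.5 CPM (1.63, 1.25 to 2.13).

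Among the antiviral effectors, members of 1 family differed in direction. *Ifit1* (ENSMUSG00000034459), which binds viral RNA lacking the host cap modification, had 28.2 CPM in the spleen and 49.9 CPM in the SI (0.565, 0.473 to 0.675). *Ifit2* had 7.53 and 14.1 CPM (0.534, 0.378 to 0.754). *Ifit3* had 19.9 and 12.3 CPM (1.61, 1.20 to 2.19), and its near copy *Ifit3b* 5.68 and 1.79 CPM, from 52 and 9 UMIs (3.17, 1.55 to 7.33). The 4 genes thus did not follow 1 order across tissues, although *Ifit1* and *Ifit3* share the paired cores shown above. *Ifit3* depended on few cells: without the cells with many members described at the end its ratio was 0.836 (0.551 to 1.28).

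Of the remaining effectors, *Samhd1*, a dNTP hydrolase that restricts retroviruses, had 377 and 229 CPM (1.64, 1.54 to 1.76). *Rtp4*, an interferon-induced receptor transporter protein, had 77.2 and 132 CPM (0.585, 0.525 to 0.651). *Bst2* (tetherin, which holds budding virus at the surface) had 176 and 118 CPM (1.48, 1.35 to 1.63), just inside 1.5-fold. The others stayed within 1.5-fold: *Xaf1*, a pro-apoptotic factor, at 59.3 and 83.0 CPM, *Ifi35* at 104 and 91.0 CPM, *Trim30a* at 104 and 103 CPM, the exonuclease *Isg20* at 62.3 and 64.6 CPM, the lipid-modifying *Rsad2* (viperin) at 7.75 and 10.1 CPM, and the dynamin-like *Mx1* at 4.48 and 3.18 CPM. *Trim30a* shares 18.8% of the sequence stretches near its 3′ end with *Trim30d*, so its counts may be split between them.

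The 8 GTPases had a summed ratio of 1.29 (1.23 to 1.35) and lay on both sides. *Iigp1*, an Irg GTPase that acts on parasite vacuoles, had 65.6 and 18.1 CPM (3.63, 2.91 to 4.58). *Igtp* had 131 and 66.6 CPM (1.97, 1.74 to 2.23) and *Ifi47* 217 and 144 CPM (1.51, 1.39 to 1.65). Of the guanylate-binding proteins, *Gbp3* was higher in the spleen, at 67.5 and 40.7 CPM (1.66, 1.41 to 1.95), and *Gbp2* higher in the SI, at 47.5 and 74.1 CPM (0.641, 0.557 to 0.738), although its ratio was 0.967 in Ccl5-high and 0.874 in other cells. *Gbp4* (64.2 and 63.4 CPM), *Gbp7* (92.8 and 110 CPM) and *Irgm1* (36.7 and 43.3 CPM), the regulator of the Irg family, were within 1.5-fold.

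The Schlafen genes had a summed ratio of 1.78 (1.70 to 1.86), and all 4 were above 1. *Slfn5* (ENSMUSG00000054404, chromosome 11, 82951349 to 82964840) had 19.2 CPM in the spleen, from 176 UMIs, and 1.99 CPM in the SI, from 10 UMIs, a ratio of 9.67 (5.14 to 20.5). Within Ccl5-high cells the levels were 5.62 and 2.18 CPM, from 7 and 10 UMIs (2.58, 0.834 to 7.51). *Slfn1*, which like *Slfn2* is known to restrain T cell growth, had 116 and 57.8 CPM (2.0, 1.75 to 2.28), and *Slfn2* had a ratio of 1.76 (1.67 to 1.85). *Slfn8* was within 1.5-fold at 57.8 and 43.3 CPM, and it shares 8.81% of the stretches near its 3′ end with *Slfn9*. The 3 genes of the Parp9 complex, which links ADP-ribosylation to interferon signalling, did not differ by 1.5-fold: *Parp9* had 64.7 and 55.8 CPM, *Parp14* 44.9 and 38.5 CPM, and *Dtx3l* 47.7 and 60.4 CPM.

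**Figure D2:**
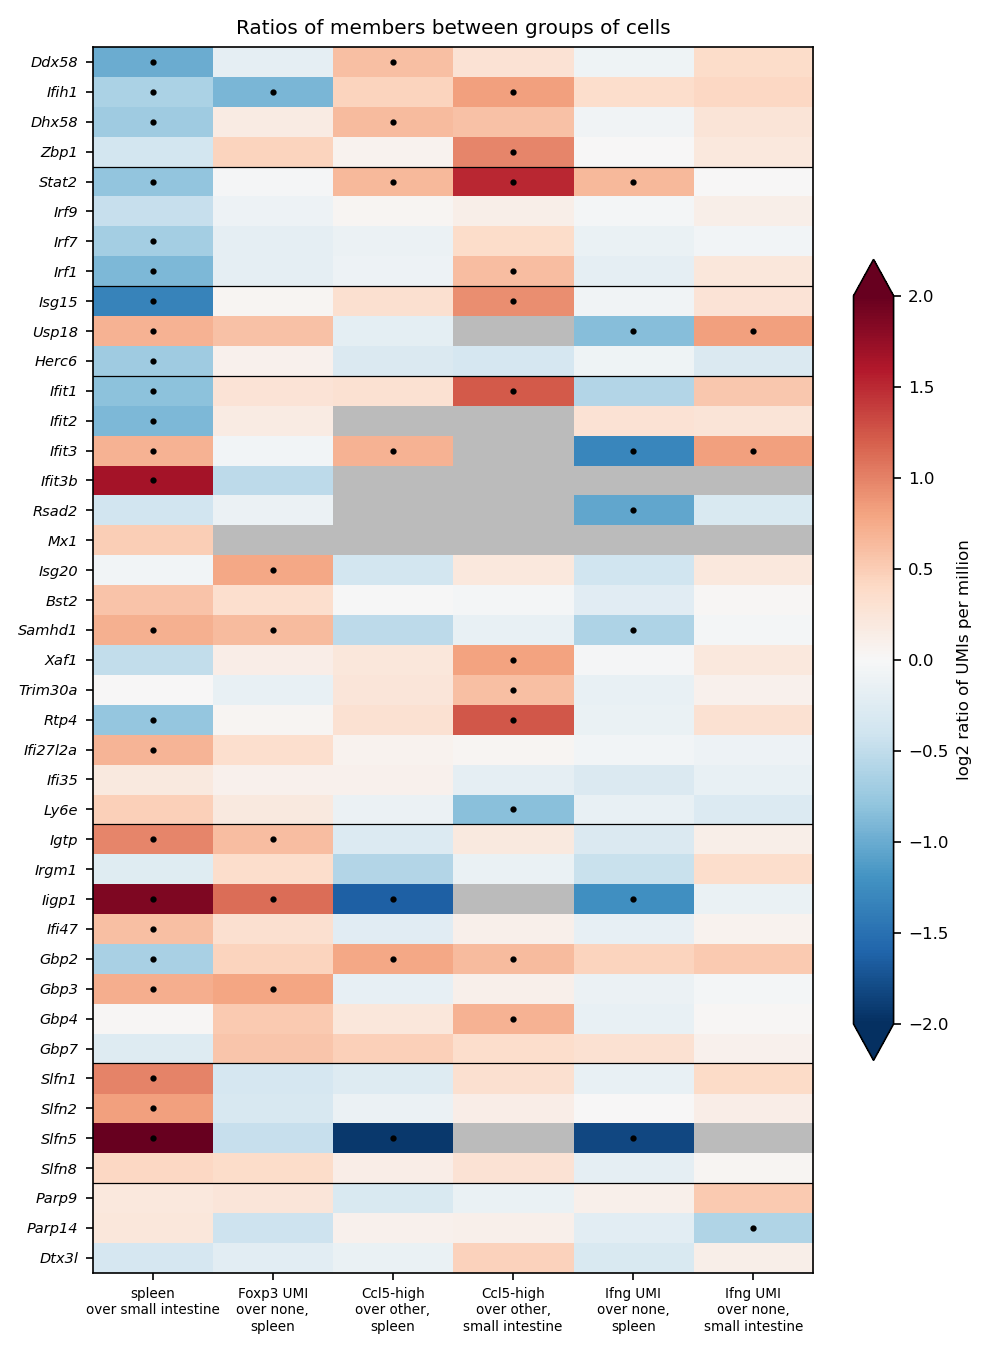
Log2 ratio of CPM of each member (rows, by role) in 6 comparisons (columns): spleen over SI, cells with over cells without a *Foxp3* UMI in the spleen, Ccl5-high over other cells in each tissue, and cells with over cells without an *Ifng* UMI in each tissue. Dots mark ratios past 1.5-fold and grey marks members that did not pass the filter on low counts. The column of the tissues holds dots in both directions, with the sensors and transcription factors on one side and the Schlafen genes on the other.

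Members with and without the promoter letters lay on both sides of the tissue comparison. Of the 17 members with an ISRE core, 5 were higher and 6 lower in the spleen, and of the 13 with a window and no core, 4 were higher and 4 lower, where 24.2% and 21.3% of all genes were. Of the 8 with GAS letters, 2 were higher and 2 lower.

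*Ccl5* encodes a chemokine of effector and memory T cells, and cells with at least 10 *Ccl5* UMIs per 10000 UMIs are called Ccl5-high here. The state and the tissue were largely the same division: 1178 of 1278 SI cells and 225 of 1469 spleen cells were Ccl5-high. The cut falls in a thin range, with 68 SI and 46 spleen cells at 5 to 10 per 10000 and 57 SI and 34 spleen cells at 10 to 20, while 1099 SI cells and 156 spleen cells reached 40 or more.

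Within the cells that were not Ccl5-high, 1244 from the spleen and 100 from the SI, 11 of 31 members that passed were higher in the spleen and 0 were lower (background 19.3% and 16.1%). With only 100 SI cells, the filter on expected counts left out members with few UMIs, so the 0 covers only the 31 that passed. *Ddx58*, whose ratio in these cells is given above, was past 1.5-fold lower in the spleen but did not pass. The summed ratio there was 1.37 (1.32 to 1.42), and that of the 38 less abundant members was 1.28 (1.20 to 1.36). Within the Ccl5-high cells, 5 of 38 were higher in the spleen and 8 lower (background 18.4% and 19.5%), and the 38 less abundant members had a ratio of 0.925 (0.890 to 0.961).

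The members that were higher in the SI over all cells had these values in the 2 states, whose difference was not tested. *Isg15* had a ratio of spleen to SI of 0.460 (0.395 to 0.532) in Ccl5-high cells and 0.702 (0.561 to 0.889) in the others, below 1 in both. *Rtp4* had 0.665 (0.540 to 0.812) in Ccl5-high cells and 1.28 (0.863 to 1.97) in the others, and *Ifit1* had 1.21 (0.646 to 2.56) in the others, where the interval holds 1. *Ifi27l2a*, on the spleen side, kept 1.65 (1.61 to 1.70) and 1.63 (1.54 to 1.72).

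In the SI, the less abundant members were higher in Ccl5-high cells while *Ly6e* was lower, and the sum hid both. The summed ratio was 1.03 (0.992 to 1.07), that of the 38 less abundant members 1.33 (1.25 to 1.42) and that of the 3 abundant members 0.894 (0.855 to 0.936). Of the 33 members that passed, 11 were at least 1.5-fold higher and 1 lower, against 10.1% and 14.9% of all genes tested. *Usp18*, *Ifit2*, *Ifit3*, *Ifit3b*, *Rsad2*, *Mx1*, *Iigp1* and *Slfn5* did not pass here. At equal depth 6 of 24 were higher and 1 lower (background 11.2% and 12.9%).

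The 11 included sensors, transcription factors and effectors. *Rtp4* had 139 CPM in Ccl5-high and 58.6 CPM in other SI cells (2.37, 1.60 to 3.66). *Zbp1* had 203 and 104 CPM (1.96, 1.46 to 2.70), and *Isg15* had 357 and 187 CPM (1.91, 1.53 to 2.41). For *Ifit1* the levels were 52.5 and 22.5 CPM (2.33, 1.25 to 4.92). In these 4 genes the intervals lie above 1. *Rtp4* and *Zbp1* stayed past 1.5-fold in all 13 alternative settings and *Isg15* in 12 of 13. *Ifit1* did so in 8 of 12, with ratios from 1.36 to 2.57. The cells with many members described at the end held 49.4% of the *Ifit1* UMIs of the SI cells compared there.

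For *Stat2* the levels were 25.5 and 9.01 CPM, the second from 4 UMIs (2.83, 1.08 to 10.6). *Irf1* had 142 and 92.4 CPM (1.54, 1.12 to 2.16), *Xaf1* 86.3 and 49.6 CPM (1.74, 1.13 to 2.81) and *Trim30a* 106 and 69.8 CPM (1.52, 1.06 to 2.26). *Gbp2* had 76.5 and 49.6 CPM (1.54, 1.0 to 2.49), *Gbp4* 65.6 and 40.5 CPM (1.62, 1.01 to 2.77) and *Ifih1* 47.9 and 27.0 CPM (1.77, 0.995 to 3.48), so that the interval of *Ifih1* holds 1 and those of the 2 Gbp genes end just above it. *Ly6e* lay on the other side, with 805 CPM in Ccl5-high and 1430 CPM in other cells (0.562, 0.517 to 0.613).

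Some of these differences moved with the choice of the *Ccl5* cut: with a cut at 5 per 10000, *Isg15* had a ratio of 1.11 (0.821 to 1.55) and *Irf1* of 1.11 (0.687 to 1.91). In Ccl5-high against other SI cells, *Cd8* genes stood at 387 and 4.51 CPM, myeloid genes at 133 and 246 CPM, B cell genes at 11.1 and 45.1 CPM, proliferation genes at 662 and 1347 CPM and early-response genes at 3695 and 4613 CPM, and their part in the result was not tested.

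In the spleen the Ccl5-high cells did not have a higher sum, with 0.954% of UMIs against 0.956% (ratio 0.998, 0.979 to 1.02). Of 37 members that passed (*Ifit2*, *Ifit3b*, *Rsad2* and *Mx1* did not), 5 were higher and 2 lower by 1.5-fold (background 6.78% and 8.82%). At equal depth 1 of 35 was higher (*Gbp7*) and 2 lower (*Herc6* and *Iigp1*), beside a background of 6.9% and 10.5%, and none of the 5 was past 1.5-fold there. *Gbp2* had 73.9 and 43.3 CPM (1.71, 1.34 to 2.15), and *Ifit3* 29.7 and 18.3 CPM (1.62, 1.10 to 2.34), although at equal depth the ratio of *Ifit3* was 0.990 (0.488 to 1.84). The sensors *Ddx58* (32.9 and 21.6 CPM, 1.53, 1.06 to 2.16) and *Dhx58* (28.9 and 18.7 CPM, 1.55, 1.04 to 2.24) were past 1.5-fold over all depths, with 1.19 and 1.42 at equal depth. For *Stat2*, at 20.1 and 12.9 CPM, the interval of the ratio holds 1 (1.56, 0.964 to 2.43), and the ratio was 0.707 in cells of 3000 to 6000 UMIs.

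On the other side, *Iigp1* had 23.3 CPM in Ccl5-high and 72.2 CPM in other spleen cells (0.323, 0.214 to 0.468), and *Slfn5* had 5.62 and 21.3 CPM (0.263, 0.104 to 0.555). Both are genes with higher levels in the spleen than in the SI, and both were lower in the Ccl5-high spleen cells. *Iigp1* in Ccl5-high cells differed little between tissues, with a ratio of spleen to SI of 1.23 (0.778 to 1.89), against 8.02 (3.11 to 29.5) in the other cells. The second ratio rests on few UMIs of 100 SI cells. *Iigp1* had 91 UMIs in all 1278 SI cells and did not pass the filter between the *Ccl5* states of the SI. The difference between the states was not tested.

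*Foxp3* encodes the transcription factor of regulatory T cells, and 280 of 1469 spleen cells had at least 1 *Foxp3* UMI. A cell without one may still express the gene, and the cells with one were deeper, with a median of 7685.5 UMIs against 5051. In these cells the members took 1.09% of UMIs against 0.910%, a ratio of 1.20 (1.18 to 1.22), and the GTPases had the highest ratio of the 7 roles, 1.47 (1.40 to 1.55). The Schlafen genes had the lowest, 0.823 (0.781 to 0.868).

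Of the 40 members that passed (*Mx1* did not), 5 were at least 1.5-fold higher and 1 lower, against 6.38% and 7.35% of all genes tested. *Iigp1* had 110 CPM in cells with and 50.5 CPM in cells without a *Foxp3* UMI (2.18, 1.84 to 2.57), *Gbp3* 98.3 and 56.9 CPM (1.73, 1.46 to 2.04), and *Igtp* 177 and 115 CPM (1.54, 1.36 to 1.73). *Isg20* had 90.2 and 52.8 CPM (1.71, 1.43 to 2.03) and *Samhd1* 512 and 331 CPM (1.55, 1.44 to 1.66). All 8 GTPases had ratios above 1. The sensor *Ifih1* lay on the other side, with 18 and 33.8 CPM (0.534, 0.375 to 0.744).

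The ratio was higher with the smaller group of 117 spleen cells that kept a *Foxp3* UMI after all cells were thinned to 2089 UMIs. With the full counts of these 117 cells against the other 1322, the summed ratio was 1.37, and 19 of 37 members that passed were higher and 1 lower (background 4.08% and 6.74%). With the thinned counts of the same groups, the summed ratio was 1.43 (1.38 to 1.49), and 14 of 27 members that passed were higher and 0 lower (background 5.86% and 8.6%). The 14 included *Isg15*, with 245 and 130 CPM (1.88, 1.41 to 2.48), *Gbp7*, with 172 and 84.4 CPM (2.04, 1.43 to 2.84), and *Irf7*, with 135 and 83.3 CPM (1.62, 1.09 to 2.34), next to *Iigp1* at 2.81 (1.91 to 4.03). With full counts and groups by any *Foxp3* UMI, but without the cells with many members described at the end (251 against 1123 cells, a selection that uses the members' own counts), 3 of 38 were higher (*Isg20*, *Iigp1* and *Gbp3*) and 5 lower (*Ifih1*, *Ifit1*, *Ifit3*, *Slfn5* and *Parp14*), beside a background of 6.73% and 7.98%. Among marker lists, cells with and without a *Foxp3* UMI had proliferation genes at 2329 and 1426 CPM, early-response genes at 1070 and 1330 CPM, myeloid genes at 190 and 159 CPM, epithelial genes at 49.0 and 25.9 CPM and B cell genes at 9.45 and 5.41 CPM. Over all spleen cells *Epcam* gave 290 of the 291 UMIs of the epithelial list, with *Krt8* and *Fabp2* at 0. The part of these marker lists in the result was not tested.

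In the SI only 28 cells had a *Foxp3* UMI, and 17 members passed. Of these, 2 were higher and 4 lower by 1.5-fold, and no share of all genes was computed for this comparison. The summed share was 0.851% against 0.711% (1.20, 1.13 to 1.27), with the 3 abundant members at a ratio of 1.40 (1.31 to 1.5). The 38 others had a summed ratio of 0.883 (0.794 to 0.979) and were divided. Among them the Isg15 system had 0.388 (0.245 to 0.583), the GTPases 1.15 (0.930 to 1.41) and the Parp9 complex, whose genes did not pass singly, 1.96 (1.41 to 2.66). *Ly6e* had 1534 and 839 CPM (1.83, 1.59 to 2.09) and *Samhd1* 342 and 226 CPM (1.51, 1.12 to 2.0), while *Isg15* had 134 and 348 CPM (0.385, 0.234 to 0.596). For *Irf1*, *Xaf1* and *Trim30a*, with ratios of 0.577 to 0.644, the intervals hold 1. *Samhd1* was thus higher in cells with a *Foxp3* UMI in both tissues. A *Foxp3* UMI was found in 1.36% of Ccl5-high and 12% of other SI cells, so this comparison overlaps that of the *Ccl5* states. In the SI, myeloid genes had 248 CPM in cells with and 139 CPM in cells without a *Foxp3* UMI and CD8 genes 154 and 359 CPM, and their part in the result was not tested.

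**Figure D3:**
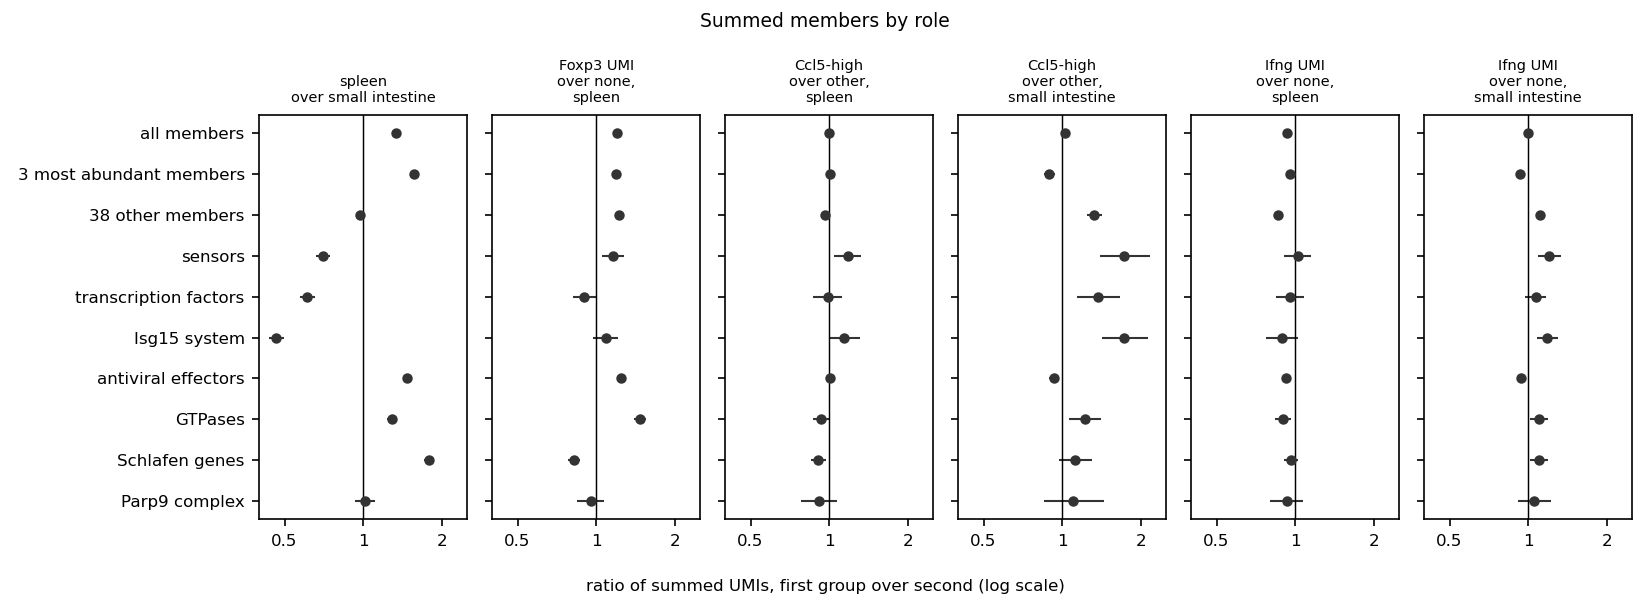
Ratio of the summed UMI share of each role group of members in 6 comparisons, with exact 95% intervals. The *Foxp3* panel shows the GTPases at 1.47 and the Schlafen genes at 0.823, and the tissue panel shows the Isg15 system at 0.464 and the Schlafen genes at 1.78.

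Interferon-γ can act on the cell that makes it or on its neighbours, and *Ifng* stood at 60.1 CPM in the spleen and 354 CPM in the SI (ratio 0.170, 0.154 to 0.187). The 41 members as a sum had the other order, with 21 members above 1 and 20 below it. That order came from the 3 abundant members. The 38 others had a ratio of spleen to SI of 0.975, or 1.03 at equal depth. Whether *Ifng* bears on these levels was not tested. In the spleen, 230 cells with an *Ifng* UMI had a member share of 0.898% against 0.967% in the 1239 without one, a ratio of 0.929 (0.912 to 0.947). In the SI the shares were 0.713% in 670 and 0.717% in 608 cells, a ratio of 0.995 (0.974 to 1.02). With 0, 1 to 2, and 3 or more *Ifng* UMIs, the share was 0.967%, 0.951% and 0.790% in the spleen and 0.717%, 0.733% and 0.677% in the SI.

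Of 39 members that passed in the spleen (*Ifit3b* and *Mx1* did not), 1 was higher and 6 were lower in cells with an *Ifng* UMI by 1.5-fold (background 6.55% and 7.91%). At equal depth 1 of 28 was higher (*Gbp2*) and 0 lower (background 6.89% and 7.95%), and in cells of 3000 to 6000 UMIs 0 of 36 were higher and 10 lower (background 6.33% and 7.42%). *Samhd1* had 261 and 399 CPM (0.655, 0.587 to 0.729) and *Iigp1* 30.8 and 72.2 CPM (0.427, 0.308 to 0.579). *Slfn5* had 6.17 and 21.7 CPM, the first from 9 UMIs (0.284, 0.128 to 0.553). These 3 were also among the genes with higher levels in the spleen than in the SI. The groupings overlap in the spleen: 39.1% of Ccl5-high and 11.4% of other cells had an *Ifng* UMI. So did 5.36% of cells with and 18.1% of cells without a *Foxp3* UMI. A *Foxp3* UMI was found in 8.89% of Ccl5-high and 20.9% of other spleen cells. The *Foxp3*, *Ccl5* and *Ifng* comparisons are thus not independent of each other.

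*Usp18* had 15.1 CPM in spleen cells with and 27.1 CPM in cells without an *Ifng* UMI (0.556, 0.341 to 0.864), *Ifit3* had 8.91 and 21.9 CPM (0.406, 0.212 to 0.713), and *Rsad2* had 4.11 and 8.44 CPM, with an interval that holds 1 (0.487, 0.173 to 1.12). *Stat2*, at 19.9 and 12.7 CPM, was the member on the higher side, and its interval holds 1 (1.56, 0.995 to 2.39). Without the cells with many members, 3 of 36 were higher and 2 lower (background 6.44% and 7.98%), and the ratio of *Ifit3* was 1.14 (0.533 to 2.22).

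In the SI, 38 members passed (*Ifit3b*, *Mx1* and *Slfn5* did not), 2 were higher and 1 lower (background 1.91% and 3.36%). At equal depth 0 of 33 were higher and 1 lower (*Parp14*), beside a background of 2.33% and 3.83%. In cells of 3000 to 6000 UMIs, 2 of 35 were higher (*Usp18* and *Parp9*) and 0 lower (background 2.6% and 3.03%). *Usp18* had 19.1 and 10.9 CPM (1.76, 1.07 to 2.97), *Ifit3* 15.2 and 8.61 CPM (1.77, 1.01 to 3.21) and *Parp14* 31.5 and 47.6 CPM (0.662, 0.493 to 0.886). *Usp18* and *Ifit3* thus pointed in opposite directions in the 2 tissues, from 13 to 209 UMIs a group, and the difference between tissues was not tested. The 38 less abundant members had a ratio of 1.11 (1.07 to 1.15) in the SI and 0.859 (0.829 to 0.891) in the spleen. At equal depth these ratios were 1.04 (0.991 to 1.09) and 0.898 (0.830 to 0.970). Without the cells with many members they were 1.05 (1.01 to 1.08) and 0.961 (0.925 to 0.998), and in cells of 3000 to 6000 UMIs 1.13 and 0.772. Across cells at equal depth, their sum and the *Ifng* count had a Pearson r of -0.030 over 1439 spleen cells and 0.027 over 1150 SI cells. These are descriptions across cells of 1 library each.

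Of 45 other pathway genes found in the files, out of 49 listed, 37 passed between tissues, and 6 were higher and 9 lower in the spleen (background 24.2% and 21.3%). *Ifngr1*, the ligand-binding chain of the interferon-γ receptor, had 412 CPM in the spleen and 1107 CPM in the SI (0.373, 0.357 to 0.388). For the type I receptor chains the intervals of the ratio hold 1, with *Ifnar1* at 32.2 and 26.8 CPM (1.20, 0.976 to 1.48) and *Ifnar2* at 44.1 and 44.5 CPM (0.991, 0.840 to 1.17). *Ifnb1* and *Ifna4*, which encode type I interferons, had 0 UMIs in both libraries. A count of 3 UMIs would be 0.327 CPM in the spleen and 0.596 CPM in the SI, so low levels cannot be seen.

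*Socs1*, the feedback inhibitor of Jak kinases, had 107 CPM in the spleen and 32.8 CPM in the SI (3.27, 2.77 to 3.88), and in the spleen 61.1 CPM in Ccl5-high and 114 CPM in other cells (0.534, 0.417 to 0.675). The membrane proteins that block viral entry lay far on the SI side: *Ifitm2* had 10.0 and 105 CPM (0.0957, 0.0759 to 0.120) and *Ifitm3* 78.3 and 289 CPM (0.271, 0.247 to 0.296). Both also had higher levels in Ccl5-high cells, with ratios of 1.88 and 2.07 in the spleen and 2.22 and 2.21 in the SI. *Ifi204*, a DNA sensor of the p200 family, had 19.5 and 4.57 CPM (4.28, 2.76 to 6.92), on the spleen side.

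At 2089 UMIs per cell, the summed count of the 38 less abundant members varied more between cells than random sampling of 1 common level would give, with a variance of 6.14 times the mean in the spleen and 3.37 times in the SI. Among single members the ratio of variance to mean was 6.07 and 5.14 for *Ifi27l2a*, 3.0 and 1.99 for *Ifit1*, 2.72 and 1.88 for *Isg15*, and 2.16 and 1.17 for *Ifit3*. *Ifit1* and *Ifit3*, the pair with the highest ratio to independence in the spleen, were found together in 14 spleen cells where independence would give 2.43. In the SI they were found together in 8 cells against 2.75. Some pairs of members occurred together at least 2 times as often as under independence. In the spleen these were 111 of the 749 pairs with enough cells, and in the SI 32 of 691. The median pair stood nearer to independence, at 1.28 times the expected count (spleen) and 1.14 times (SI). Pairs of other genes were not counted, so these shares have no background beside them. The 3 abundant members and the 38 others had a Pearson r of 0.417 across spleen cells and 0.301 across SI cells.

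**Figure D4:**
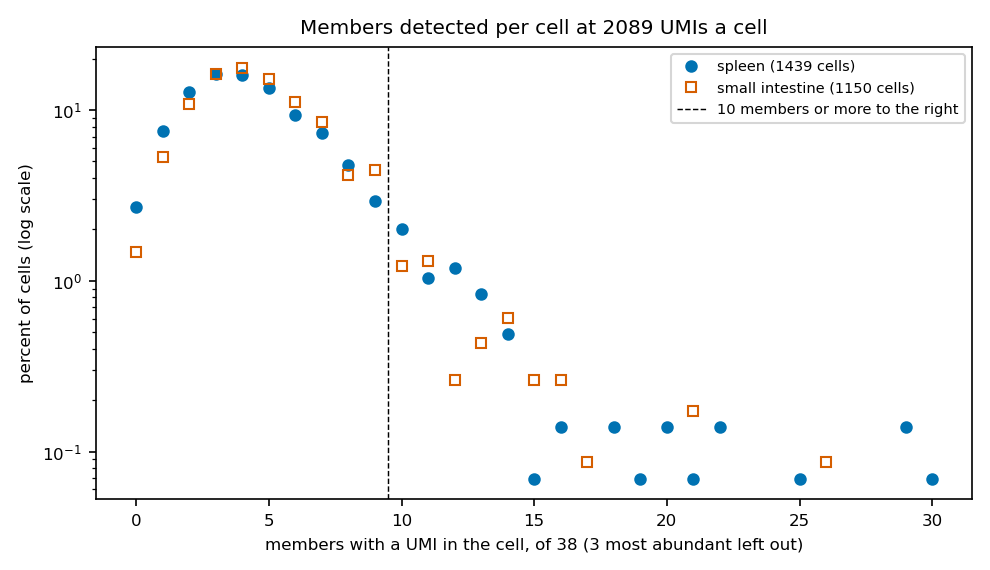
Percent of cells (vertical log axis) by the number of the 38 less abundant members detected in the cell (horizontal axis) at 2089 UMIs per cell, for 1439 spleen and 1150 SI cells. Most cells had few members detected, with a median of 4 outside the right tail, and the tail reached 30 members in the spleen and 26 in the SI.

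Cells with at least 10 of the 38 members detected at equal depth made up 95 of 1439 spleen cells (6.6%, 5.37 to 8.01) and 54 of 1150 SI cells (4.70%, 3.55 to 6.08). The cut of 10 was set by hand, and with 8 or 12 members it gave 206 and 51 spleen cells and 153 and 25 SI cells, so that the group is one end of a range and not a separate class. Depth did not set it apart, with medians of 5063 UMIs against 5532.5 in the other spleen cells and 3813 against 3839.5 in the SI. In the spleen, 30.5% of them had a *Foxp3* UMI (18.5% of the others), 8.42% were Ccl5-high (15.5%) and 7.37% had an *Ifng* UMI (16.4%). In the SI, 1.85% had a *Foxp3* UMI (2.37% of the others), 96.3% were Ccl5-high (92.1%) and 64.8% had an *Ifng* UMI (54.0%).

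Genes that were not used in the choice were also higher in these cells. Other interferon-stimulated genes, 32 of them, had a summed ratio of 2.14 (2.07 to 2.22) in the spleen and 2.02 (1.90 to 2.15) in the SI. They were summed over all 32, with no filter on their counts. The 3 abundant members had a summed ratio of 1.83 (1.78 to 1.88) in the spleen and 1.74 (1.65 to 1.83) in the SI. Singly, *Ifi27l2a* had 1.96 in the spleen and 2.01 in the SI. *Ly6e* had 1.48 and 1.11 and *Slfn2* 1.48 and 1.07, so in the SI the sum rested on *Ifi27l2a*.

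Gene groups of other kinds lay on both sides of 1. The *Cd8* genes had a ratio in the spleen of 2.05 (1.09 to 3.60), from 14 UMIs in the 95 cells, against 0.814 (0.627 to 1.04) in the SI. The 4 interferon receptor genes had summed ratios of 1.35 (1.21 to 1.51) in the spleen and 0.827 (0.720 to 0.947) in the SI. *Ifngr1* gave 298 of their 342 UMIs in the 95 spleen cells and 210 of 220 in the 54 SI cells. The type I chains *Ifnar1* and *Ifnar2* had ratios of 0.818 and 1.18 in the spleen and 0.704 and 0.603 in the SI. Proliferation genes had 0.842 (0.781 to 0.907) and 0.661 (0.541 to 0.800), and early-response genes 1.12 (1.03 to 1.20) and 0.874 (0.811 to 0.942). Markers of myeloid cells had 1.23 (1.0 to 1.5) and 0.744 (0.474 to 1.12). B cell markers had 4 UMIs in the 95 spleen cells (ratio 1.18, 0.312 to 3.21) and 2 UMIs in the 54 SI cells (0.597, 0.0709 to 2.24). The plasma, plasmacytoid dendritic, NK and erythroid lists had 0 UMIs in the 95 spleen cells and 0 to 3 UMIs in the 54 SI cells.

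**Figure D5:**
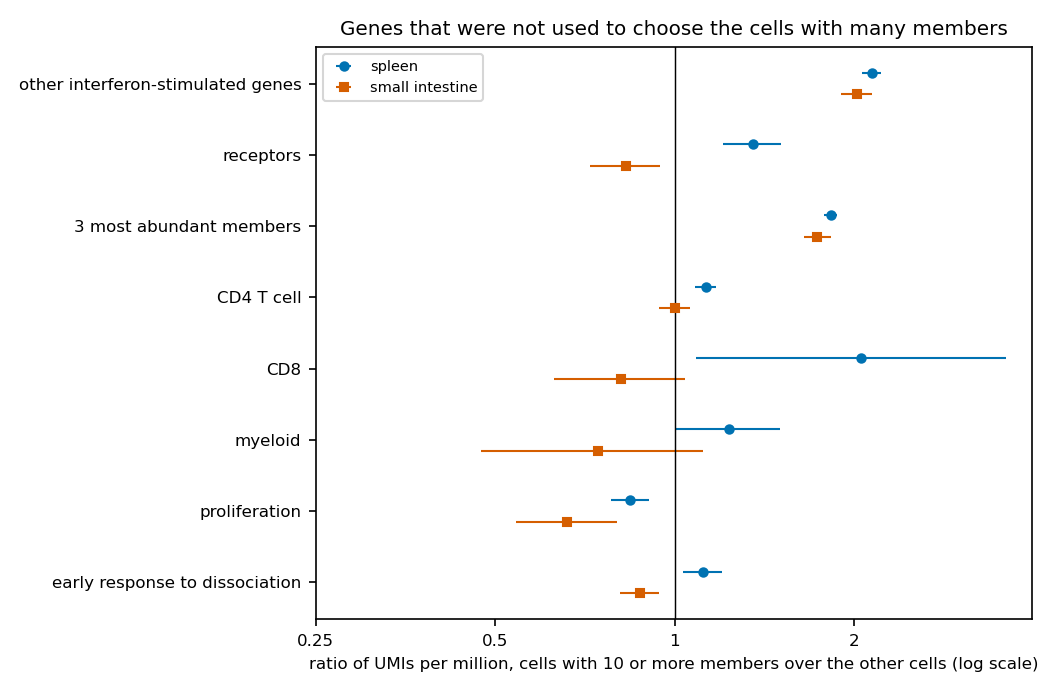
Ratio of CPM in cells with 10 or more of the 38 less abundant members over the other cells, for gene groups that were not used to choose the cells, in the spleen and the SI, with exact 95% intervals. As sums, other interferon-stimulated genes and the 3 abundant members lie between 1.74 and 2.14. The receptors, proliferation and early-response genes lie closer to 1 or below it. The *Cd8* genes differ between tissues with a wide interval in the spleen.

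Several members of low level were carried largely by these cells in the spleen, which is a description since the members chose them. They held 5.78% of the UMIs of the spleen cells compared but 66.3% of those of *Ifit1*, 67.0% of *Ifit3*, 69.2% of *Ifit3b*, 65.9% of *Mx1* and 58.6% of *Rsad2*. In the SI they held 4.63% of UMIs, 49.4% of those of *Ifit1* and 68.8% of those of *Mx1*. Of the 95 spleen cells, 49 had a UMI of *Ifit1*, 41 of *Ifit3*, 26 of *Rsad2*, 19 of *Ifit3b* and 14 of *Mx1*.

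At the far end, 9 spleen cells and 3 SI cells had 20 or more members detected. The 9 spleen cells had 2471 to 7867 UMIs, and members made up 1.98% to 6.52% of them, with a median of 3.76%. All 9 had a UMI of a Cd3 gene, 7 of *Il10*, 6 of *Foxp3* and 0 of *Ifng*, and together they held 0 B cell and 7 myeloid marker UMIs. Of the 9, 3 were Ccl5-high (33.3%, against 14.9% of the other spleen cells), unlike the lower share among the 95. These 9 cells alone held 29.5% of the *Ifit1* and 30.2% of the *Ifit3* UMIs of the 1469 spleen cells, against 8.77% of those of *Isg15*. All 3 SI cells had UMIs of *Il10* and *Ifng*, 0 had one of *Foxp3*, and they held 13.9% of the *Ifit1* UMIs of the tissue.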

How the data were processed

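The deposited matrices hold raw UMI counts per gene and barcode, which the authors made by trimming reads with Trimmomatic and running Cell Ranger on mm10 (versions not given in the sources used here; mm8, also named in the labels, was used for another assay). Each tissue is 1 library. Barcodes more than 3 median absolute deviations below the median in log UMIs or log genes were removed. So were those as far above it in mitochondrial share, while deep barcodes were kept. Cells that cyclone placed in G2/M were left out (R 4.3.3, scran 1.30.0, scuttle 1.12.0, Matrix 1.6.5). Counts were summed per group of cells (Python 3.11.15, numpy 2.4.6, pandas 2.3.3) and divided by the group's UMIs. Levels have exact Poisson, ratios exact binomial and shares of cells Clopper-Pearson 95% intervals (scipy 1.17.1). They cover counting error only, and no p-value was computed.

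A gene passed with at least 50 UMIs over both groups and at least 10 expected in each, and was called at a 1.5-fold ratio. Equal depth means cells thinned to 2089 UMIs, the 10th percentile of SI cells, which left out 30 spleen and 128 SI cells. A count of 3 UMIs corresponds to 0.327 CPM in the spleen and 0.596 CPM in the SI. Scrublet (scanpy 1.11.5) marked 4 barcodes per library as doublets, too few for a working call, and they were left out only as an alternative. TMM (edgeR 4.0.16) and median-of-ratios (DESeq2 1.42.0) factors were used for scaling alone, on the deposited counts. The scripts were tested on simulated data. Figures were drawn with matplotlib 3.10.9.

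The members and gene lists were chosen with earlier results of these data known. Values are given for the 10 members with the highest CPM in either tissue, for every member past 1.5-fold in a comparison and for members with under 10 UMIs in both libraries, of which there were 0; other members are given by range or in passing. The promoter windows came from RefSeq, and 11 members without one are named only by their levels. The cut of 10 members per cell was chosen after the cells were seen. Some items are not reported here.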

Additional observations from a re-analysis of the deposited data

Results flagged for a closer look

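*Usp18* and *Ifit3* lay on opposite sides of 1 in the 2 tissues when cells with an *Ifng* UMI were set against cells without one. The ratio of *Usp18* was 0.556 in the spleen and 1.76 in the SI. The ratio of *Ifit3* was 0.406 in the spleen and 1.77 in the SI. With 1 library per tissue the difference between tissues was not tested. The direction of *Ifit3* turned to 1.14 in the spleen without the cells with many members and to 0.960 in the SI when cells were grouped by the *Ifng* UMIs left after thinning. *Usp18* kept its direction in all 11 settings and was past 1.5-fold in 9 of them in each tissue. Its ratio ranged from 0.479 to 0.724 in the spleen and from 1.07 to 1.99 in the SI. The many-member cells held 39.7% of its UMIs in the SI cells compared there.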

How the results depend on the processing

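Of 23 settings, 3 were chosen after seeing the data (a *Ccl5* cut of 40 per 10000, cells of 3000 to 6000 UMIs only, and cells with many members left out). No paired analysis was possible because each tissue has 1 library. The 59 ratios of single members followed here were those past 1.5-fold in the main setting, the *Foxp3* comparison of the SI aside. Of these, 49 kept 1 direction in every setting run and 16 stayed past 1.5-fold in every one. The settings reuse much of the same counts, and no such share was computed for other genes. Scaling by TMM or median of ratios shifted log2 ratios between tissues by 0.047 and 0.050. Causes of the moves below were not tested.

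The summed share, in percent of UMIs, moved in the spleen to 1.0 at equal depth and as a mean of single cells, 1.53 with ribosomal, mitochondrial and the top 20 genes out of the denominator, 0.997 without the deepest 5% of cells, 0.273 without the 3 abundant members, 1.08 at 3000 to 6000 UMIs and 0.887 without many-member cells. In the SI it moved to 0.724 without a quality filter, 0.726 with G2/M cells, 1.19 with that denominator, 0.701 without cells with *Cd8a* and *Cd8b1*, 0.280 without the 3 members and 0.676 without many-member cells.

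The tissue ratio turned to 0.975 without the 3 abundant members. It was 1.32 without a quality filter, 1.40 at equal depth, 1.28 with the reduced denominator, 1.39 as a mean of cells, 1.38 without the deepest cells, 1.36 without *Cd8* cells, 1.37 in cells that were not Ccl5-high, 1.28 in cells with no *Foxp3* UMI, 1.38 with either scaling, 1.52 at 3000 to 6000 UMIs and 1.31 without many-member cells. Members past 1.5-fold numbered 24 of 41 over all cells (background 24.2% higher and 21.3% lower). They numbered 13 of 38 in Ccl5-high cells (background 18.4% and 19.5%) and 11 of 31 in the other cells (19.3% and 16.1%). At a fold of 2 there were 4 of 41, and no share of all genes was computed at that fold.

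In the same order of settings, the *Foxp3* ratio in the spleen was 1.16 with G2/M cells, 1.43 at equal depth, 1.14 with the reduced denominator, 1.24 as a mean of cells, 1.3 without the deepest cells, 1.23 without the 3 members, 1.37 with groups set by thinned cells, 1.40 at 3000 to 6000 UMIs and 1.17 without many-member cells. The *Ccl5* ratio in the spleen was 1.05 with G2/M cells, 0.971 with the reduced denominator, 0.965 without the 3 members, 1.05 at a cut of 5, 0.966 at 40, 0.971 at 3000 to 6000 UMIs and 1.03 without many-member cells. In the SI it was 1.13 with the reduced denominator, 1.33 without the 3 members, 1.16 at a cut of 5, 0.967 at 20, 0.956 at 40 and 0.989 without many-member cells.

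The *Ifng* ratio in the spleen was 0.907 with G2/M cells, 0.973 at equal depth, 0.876 with the reduced denominator, 0.859 without the 3 members, 0.967 with groups set by thinned cells and 0.983 without many-member cells. In the SI it was 1.03 without the deepest cells, 1.11 without the 3 members, 0.962 with groups set by thinned cells, 1.02 at 3000 to 6000 UMIs and 0.964 without many-member cells. Among single members, *Ifit3* turned to 0.990 (*Ccl5*, spleen, equal depth), 0.960 (*Ifng*, SI, thinned groups), 0.836 (tissue) and 1.14 (*Ifng*, spleen), the last 2 without many-member cells. In cells that were not Ccl5-high, the tissue ratio turned to 1.05 for *Ifih1*, 1.43 for *Stat2*, 1.21 for *Ifit1* and 1.28 for *Rtp4*. The ratio of *Stat2* (*Ccl5*, spleen), whose interval holds 1, was 0.707 at 3000 to 6000 UMIs, and that of *Rsad2* (*Ifng*, spleen), likewise, was 1.04 with thinned groups.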

Other observations

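The entry-blocking genes *Ifitm2* and *Ifitm3* were higher in cells with an *Ifng* UMI in both tissues, unlike the 41 members as a sum. *Ifitm1* of the same family was at least 1.5-fold lower in the SI and did not pass in the spleen. Of 34 other pathway genes that passed in the spleen, 6 were higher and 1 lower (background 6.55% and 7.91%). In the SI, 5 of 32 were higher and 1 lower (background 1.91% and 3.36%). *Ifng* itself is among the higher genes in both. *Ifitm3* had 158 CPM in spleen cells with and 63.1 CPM in cells without an *Ifng* UMI (2.51, 2.14 to 2.94), and 347 and 215 CPM in the SI (1.61, 1.44 to 1.80). *Ifitm2* had 26.0 and 7.01 CPM in the spleen (3.71, 2.39 to 5.73) and 137 and 64.3 CPM in the SI (2.12, 1.75 to 2.59). In spleen cells with a *Foxp3* UMI, *Ifitm2* had 3.86 CPM, from 9 UMIs, against 12.1 CPM (0.318, 0.141 to 0.634), and *Ifi204* had 6.01 against 24.1 CPM (0.249, 0.133 to 0.430).

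*Ifngr1* was higher in spleen cells with a *Foxp3* UMI, at 596 against 350 CPM (1.70, 1.59 to 1.82), and in Ccl5-high spleen cells, at 595 against 384 CPM (1.55, 1.43 to 1.68). In the SI the ratio between Ccl5-high and other cells was 1.12 (1.02 to 1.24).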
